A study of Mus musculus with 19 samples.

Results

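A set of 10 genes, grouped as macrophage markers and scavenger receptors with the growth factor gene Csf1, was followed in whole ovaries of ageing mice: Cd68, Emr1, Csf1r, Csf1, Mrc1, Cd163, Cd163l1, Msr1, Marco and Cd14. They were chosen by gene symbol, each has 1 row, and they are 10 of the 36172 genes in the deposited count table. The ovaries came from female C57BL/6 mice, an inbred laboratory strain, with no further treatment or allele given in the labels. Age was the only factor, with 5 libraries each for mice of 3, 6 and 9 months and 4 for mice of 12 months. Whether 1 mouse gave 1 library is not stated in the labels, so the spread behind each p-value is that of libraries and could be partly technical. The stage of the oestrous cycle is not given in the labels.

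Macrophages take up dying cells, spent hemoglobin and microbes, and the ovary calls on them when follicles degenerate and when corpora lutea regress. Their survival depends on the growth factor CSF1 and the related ligand IL34, which both act through the receptor tyrosine kinase CSF1R. Scavenger receptors bind the cargo: CD163 takes up hemoglobin bound to haptoglobin, the mannose receptor MRC1 binds mannose-bearing glycoproteins, MSR1 and MARCO bind modified lipoproteins and bacteria, and CD14 passes lipopolysaccharide to TLR4. CD68 is a glycoprotein of late endosomes and lysosomes, and Emr1 encodes the adhesion receptor F4/80, the classical surface marker of mouse macrophages. Cd163l1 is also known as Scart1 and has been described in mouse on gamma-delta T cells.

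The 10 genes lie apart in the genome. In mm10 coordinates, Cd68 is at chr11:69664213-69666170, Emr1 (Adgre1 in the annotation) at chr17:57358581-57483529, Csf1r at chr18:61105572-61131139 and Csf1 at chr3:107741048-107760469. Mrc1 is at chr2:14229414-14332023, Cd163 at chr6:124304636-124330529, Cd163l1 at chr7:140197218-140231145 and Msr1 at chr8:39543232-39642750. Marco is at chr1:120474538-120505024 and Cd14 at chr18:36725064-36726815. Cd163 and Cd163l1 share a family, that of the scavenger receptors with cysteine-rich domains, but not a chromosome.

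Libraries totalled 10851519 to 14302207 estimated counts, and levels are given as CPM, the usual unit of counts scaled to the size of the library. A group of 3 libraries carried lymph node transcripts. Cr2, the complement receptor of B cells and follicular dendritic cells, had 6.17 and 10.7 CPM in 9-month replicates 1 and 2 and 12.5 CPM in 12-month replicate 2, and at most 0.7997 CPM in every other library. Alb, the liver's albumin gene, had 44.0, 109, 362, 16.2 and 3.08 CPM in the 9-month libraries, and at most 5.07 CPM at the other ages. The 12 lymph node markers summed to 66.9 to 84.7 CPM at 3 months, 68.6 to 89.4 at 6 months, 86.2 to 254 at 9 months and 97.8 to 355 at 12 months. The 10 liver markers summed to 196 to 609 CPM at 3 months, 172 to 346 at 6 months, 249 to 1261 at 9 months and 186 to 284 at 12 months. At 3 months the liver sum was mostly Trf at 245 ± 109 CPM and Cyp2e1 at 101 ± 57.5 CPM (SD), while Alb averaged 0.664 CPM. The lymph node sum at 3 months was mostly Ccl21a, at 65.5 ± 5.96 CPM (SD). Neither sum is therefore a measure of that tissue alone. Clec4f, which marks the Kupffer macrophages of mouse liver, was at 0 in every library except 9-month replicates 2, 3 and 4, which had 0.144, 0.684 and 0.156 CPM. The part of these tissues in the results below was not tested. Counts of calls at 9 and 12 months against 3 months are given for all libraries and for 2 reduced fits. One leaves out the libraries with Cr2 above 5 CPM and the other those with Alb above 40 CPM.

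Expression of the macrophage markers Cd68, Emr1 and Csf1r was seen at every age. In whole ovary this does not assign the Csf1, Cd163l1 or Cd14 transcripts to macrophages. The 29 other macrophage identity genes in the table summed to 861 to 1271 CPM at 3 months, 932 to 1211 at 6 months, 1058 to 2108 at 9 months and 1201 to 2242 at 12 months. Per kilobase of the longest matched transcript and over all 19 libraries, Cd68 was the highest of the 10 at 24.1 ± 8.22 CPM per kilobase (SD), followed by Csf1r at 14.998 ± 3.50. Emr1 at 10.04 ± 3.16, Cd14 at 9.49 ± 2.43, Mrc1 at 8.81 ± 2.49 and Csf1 at 7.09 ± 1.07 came next, and neighbours among these 4 lay within 1 SD of each other. Msr1 at 2.08 ± 0.934, Cd163 at 1.96 ± 1.21, Cd163l1 at 1.01 ± 0.847 and Marco at 0.230 ± 0.258 CPM per kilobase followed, again with neighbours within 1 SD of each other. The order therefore separates Cd68, Csf1r, a middle set of 4 genes and a low set of 4 genes, and does not rank neighbours within those sets. Within the low set, Marco lay below Msr1 and Cd163, and Cd163l1 below Msr1, by more than 1 SD of each.

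Promoter windows from RefSeq (GRCm38.p6, from 250 bases before to 50 bases after the start site) matched 6 of the 10 genes. Those of Cd68, Mrc1 and Cd163 are shown, 3 of the genes called higher at 9 months. The window of Cd163l1, also called then, begins at a start site inside the gene's span, at chr7:140218017-140218316 on the plus strand, and is not shown. Capitals mark the PU box GAGGAA or its complement TTCCTC, a form of the motif read by the macrophage lineage factor PU.1, and the AP-1 motif TGAGTCA or its complement TGACTCA. Both strands were searched and the 2 motifs do not overlap each other.
Cd68, chr11:69666121-69666420, minus strand: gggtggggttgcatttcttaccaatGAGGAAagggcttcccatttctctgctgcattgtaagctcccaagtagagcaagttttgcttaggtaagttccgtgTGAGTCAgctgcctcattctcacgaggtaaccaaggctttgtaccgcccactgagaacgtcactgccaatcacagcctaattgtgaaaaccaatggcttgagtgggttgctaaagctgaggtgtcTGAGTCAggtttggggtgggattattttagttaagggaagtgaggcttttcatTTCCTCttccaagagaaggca
Mrc1, chr2:14229164-14229463, plus strand: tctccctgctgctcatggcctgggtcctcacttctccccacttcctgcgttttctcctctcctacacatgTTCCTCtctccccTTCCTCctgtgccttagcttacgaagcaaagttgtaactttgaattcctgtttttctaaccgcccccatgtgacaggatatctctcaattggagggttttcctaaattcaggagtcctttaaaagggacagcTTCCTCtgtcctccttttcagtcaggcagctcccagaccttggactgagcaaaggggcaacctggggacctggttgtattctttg
Cd163, chr6:124304401-124304700, plus strand: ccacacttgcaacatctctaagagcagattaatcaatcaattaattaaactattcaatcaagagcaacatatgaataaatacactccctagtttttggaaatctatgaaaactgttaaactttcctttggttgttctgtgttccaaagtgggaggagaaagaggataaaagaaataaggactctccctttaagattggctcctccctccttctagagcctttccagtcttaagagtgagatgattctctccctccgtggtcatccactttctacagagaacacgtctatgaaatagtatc
The Cd68 window held 2 PU boxes and 2 AP-1 motifs, the Mrc1 window 3 PU boxes and no AP-1 motif, and the Cd163 window neither. Of the 32851 promoter windows in the table, 28.3% held a PU box and 5.20% an AP-1 motif. Among the other matched windows, that of Marco had 1 PU box, and those of Csf1 and Cd163l1 had no match. A match is a run of letters and no measured site, and its absence says only that these letters are not in the window.

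Across the 4 ages the genes followed more than 1 course. Cd163, Mrc1 and Csf1r were highest on average at 9 months and had lower means at 12 months, whereas Cd68 and Cd163l1 had their highest mean at 12 months. Emr1, Csf1 and Marco also had their highest mean at 9 months, Cd14 at 12 months and Msr1 at 6 months. No gene was called by edgeR at 12 months against 9 months. Of the 9 genes that passed the low-count filter, 5 were called higher at 9 months than at 3 months at an adjusted p under 0.05 (Cd163, Cd163l1, Mrc1, Csf1r and Cd68) and none lower, where 11.3% of the 15518 genes tested were called higher. At 12 months 2 were called higher than at 3 months (Cd163l1 and Cd68), where the share of all genes was 10.9%. At 6 months none was called against 3 months, where 0.0193% of all genes were called in either direction. Along the linear trend with age 3 were called higher (Cd163l1, Cd68 and Csf1r), where the share of all genes was 14.7%. Marco did not pass the filter.

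**Figure D1:**
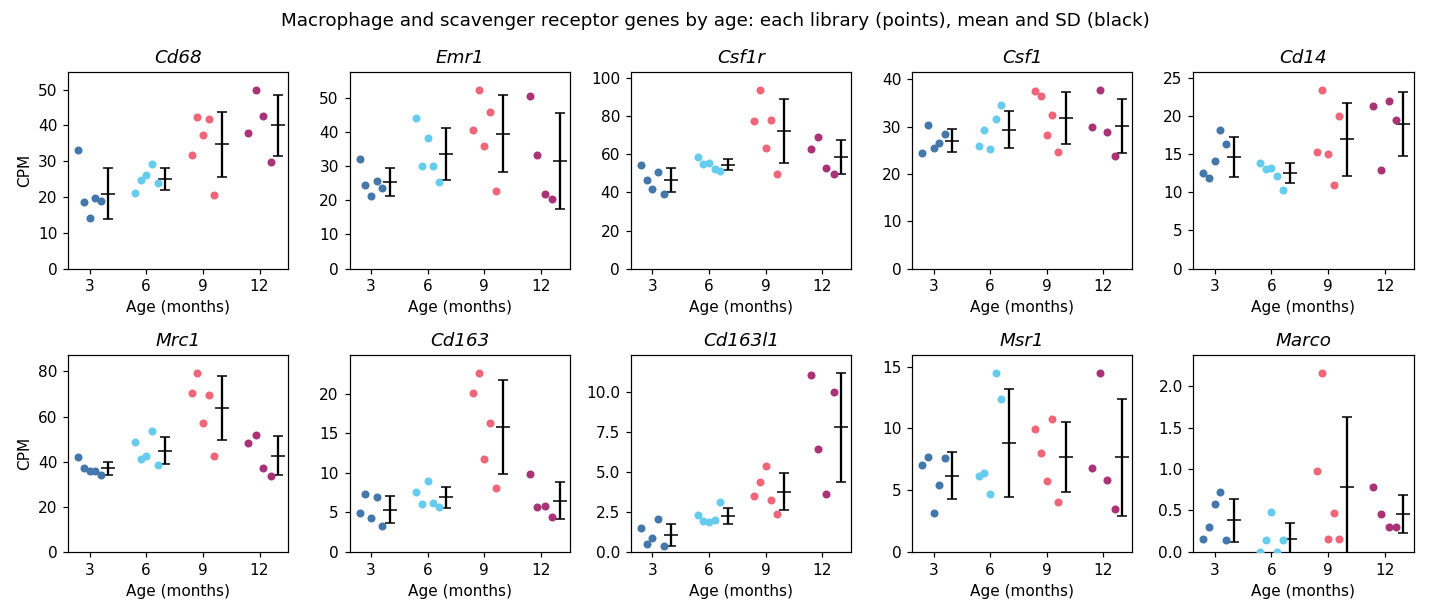
Level of each of the 10 genes in CPM (vertical axes, each from 0) in every library at 3, 6, 9 and 12 months of age (points), with the mean and SD of each age beside them in black. Cd163, Mrc1 and Csf1r have their highest mean at 9 months, as do Emr1, Csf1 and Marco. Cd163 reached 22.6 CPM in 1 library at 9 months, and Cd163l1 has its highest libraries at 12 months, up to 11.04 CPM.

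Among the identity genes, Csf1r, the receptor for CSF1, had 54.6, 46.7, 41.8, 50.8 and 39.2 CPM at 3 months and 58.4, 55.1, 55.6, 52.3 and 51.1 CPM at 6 months. It had 77.4, 94.0, 63.6, 77.9 and 49.5 CPM at 9 months and 62.9, 69.1, 52.6 and 49.96 CPM at 12 months. At 9 months 4 of the 5 libraries lay above every 3-month library, and replicate 5 lay among them. Csf1r averaged 72.5 ± 16.7 CPM at 9 months, against 46.6 ± 6.32 CPM at 3 months (SD, n = 5 each), a log2 change of 0.64 ± 0.14 (SE, edgeR quasi-likelihood test with Benjamini-Hochberg adjustment, adjusted p = 0.00256). In whole-ovary RNA, more cells of a type and more RNA per cell cannot be told apart. At 12 months the log2 change against 3 months was 0.33 ± 0.14 (edgeR, adjusted p = 0.103), which did not pass, although it did without 9-month replicate 5 (edgeR, adjusted p = 0.0465). Its trend with age, 0.48 ± 0.17 over 9 months, passed narrowly (edgeR, adjusted p = 0.0410) and was lost without any one of 10 libraries, namely 3-month replicates 2 to 5, 6-month replicates 4 and 5, 9-month replicates 1, 3 and 4, and 12-month replicate 2 (edgeR, adjusted p up to 0.0954), and without the 3 libraries high in Cr2 (0.0856).

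Cd68, the lysosomal glycoprotein, had 33.0, 18.7, 14.2, 19.7 and 18.9 CPM at 3 months and 21.1, 24.6, 26.2, 29.2 and 23.8 CPM at 6 months. At 9 months it had 31.8, 42.3, 37.5, 41.9 and 20.5 CPM and at 12 months 38.0, 49.96, 42.8 and 29.7 CPM. The 3-month library with 33.0 CPM stands above the others of its age and overlaps both later groups. Cd68 averaged 40.1 ± 8.51 CPM at 12 months (SD, n = 4), against 20.9 ± 7.10 CPM at 3 months (SD, n = 5), a log2 change of 0.94 ± 0.22 (SE, edgeR, adjusted p = 0.00697). At 9 months the change against 3 months was 0.73 ± 0.21 (edgeR, adjusted p = 0.0170). Along the trend Cd68 rose by 0.996 ± 0.20 on the log2 scale over 9 months (edgeR, adjusted p = 0.00164), and this call held in each of the 19 fits without 1 library.

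Emr1, which encodes F4/80, had 32.1, 24.3, 21.1, 25.6 and 23.6 CPM at 3 months and 44.1, 30.0, 38.1, 30.1 and 25.3 CPM at 6 months. At 9 months it had 40.5, 52.3, 35.9, 45.9 and 22.7 CPM and at 12 months 50.5, 33.3, 21.7 and 20.2 CPM. The 12-month libraries were widely spread, with 2 of them below the 3-month median of 24.3 CPM. The log2 change of 0.64 ± 0.24 at 9 months against 3 months was as large as that of Csf1r, with a wider error, and did not pass (edgeR, adjusted p = 0.0628). It passed without 3-month replicate 1 (edgeR, adjusted p = 0.0492), 9-month replicate 5 (0.0153), 12-month replicate 1 (0.0305) or 12-month replicate 3 (0.0492), and by DESeq2 (adjusted p = 0.0280). At 12 months against 3 months the change was 0.31 ± 0.26 (edgeR, adjusted p = 0.411), and without 12-month replicate 1 it was -0.02.

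The ligand gene Csf1 had 24.4 to 30.4 CPM at 3 months, 25.4 to 34.6 at 6 months, 24.7 to 37.6 at 9 months and 23.9 to 37.8 at 12 months, so every pair of ages overlapped. Csf1 averaged 30.2 ± 5.76 CPM at 12 months (SD, n = 4), against 27.1 ± 2.39 CPM at 3 months (SD, n = 5), a log2 change of 0.15 ± 0.14 that did not pass (SE, edgeR, adjusted p = 0.441). At 9 months against 3 months the change was 0.24 ± 0.13 (edgeR, adjusted p = 0.189). Il34, the other ligand of CSF1R, averaged 7.98 ± 4.15 CPM over the 4 libraries of 12 months, against 9.43 ± 3.62 CPM over the 5 of 3 months (SD), with a log2 change of -0.24 ± 0.35 (edgeR, adjusted p = 0.655). Neither ligand passed at any age, while their receptor was called at 9 months.

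Of the scavenger receptors, Cd163 had the steepest peak. This receptor for hemoglobin bound to haptoglobin had 4.88, 7.27, 4.29, 6.98 and 3.25 CPM at 3 months and 7.59, 6.06, 8.89, 6.22 and 5.68 CPM at 6 months. It had 20.05, 22.6, 11.8, 16.3 and 8.06 CPM at 9 months, but 9.84, 5.61, 5.86 and 4.47 CPM at 12 months. Every 9-month library lay above every 3-month library, and 4 of the 5 lay above every 12-month library. Cd163 averaged 15.8 ± 5.93 CPM at 9 months, against 5.33 ± 1.74 CPM at 3 months (SD, n = 5 each), a 2.95-fold difference with a log2 change of 1.56 ± 0.28 (SE, edgeR, adjusted p = 0.000747). Against 6 months the 9-month change was 1.20 ± 0.28 (edgeR, adjusted p = 0.00710), a call lost without the libraries high in Cr2 (0.83, adjusted p = 0.0612) or those high in Alb (0.83, adjusted p = 0.163), and at 12 months the change against 3 months was 0.27 ± 0.30 (edgeR, adjusted p = 0.549). The log2 change at 12 months against 9 months was -1.29 ± 0.30, which edgeR did not call (adjusted p = 0.0743) and DESeq2 did (adjusted p = 0.00400). It was also called by edgeR without 9-month replicate 5 (adjusted p = 0.0105).

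Mrc1, the mannose receptor also known as CD206, took the same course at a smaller amplitude. It had 41.9, 37.3, 35.9, 36.0 and 34.1 CPM at 3 months and 48.8, 41.0, 42.7, 53.5 and 38.6 CPM at 6 months. It had 70.5, 79.3, 57.1, 69.6 and 42.3 CPM at 9 months and 48.2, 52.0, 37.0 and 33.7 CPM at 12 months. All 9-month libraries lay above all 3-month libraries, the closest being 42.3 and 41.9 CPM. Mrc1 averaged 63.8 ± 14.4 CPM at 9 months, against 37.0 ± 2.96 CPM at 3 months (SD, n = 5 each), a log2 change of 0.78 ± 0.15 (SE, edgeR, adjusted p = 0.00109). At 12 months against 3 months the change was 0.21 ± 0.16 (edgeR, adjusted p = 0.365), and the trend of 0.44 ± 0.23 over 9 months did not pass (edgeR, adjusted p = 0.150) except without 12-month replicate 4 (0.0447). At 12 months against 9 months it was -0.58 ± 0.16, not called by edgeR (adjusted p = 0.130), called by DESeq2 (adjusted p = 0.0275) and called by edgeR without 9-month replicate 5 (adjusted p = 0.0112).

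Across all genes edgeR called none at 12 months against 9 months (2152 of 15518 had an unadjusted p under 0.05), or 0.0% of the genes tested, whereas DESeq2 called 70 higher and 182 lower. At 9 months against 6 months, where 7.44% of all genes were called higher, Cd163, Mrc1 and Csf1r were called higher. None of these 3 calls remained without the libraries high in Cr2, where 6.54% of all genes were called higher, or without those high in Alb, where 1.02% were. The log2 change was 0.51 ± 0.15 for Mrc1 (edgeR, adjusted p = 0.0244) and 0.41 ± 0.14 for Csf1r (edgeR, adjusted p = 0.0426). The Mrc1 call was lost without 6-month replicate 2, 6-month replicate 5 or 9-month replicate 2 (edgeR, adjusted p up to 0.0682). The Csf1r call was lost without any one of 8 libraries, namely 3-month replicate 2, 6-month replicates 2 to 5 and 9-month replicates 1, 2 and 4 (edgeR, adjusted p up to 0.106). Without 9-month replicate 5, Cd68 was called as well (edgeR, adjusted p = 0.0260), and without 9-month replicate 4 Cd14 was (edgeR, adjusted p = 0.0384).

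Cd163l1 had a higher mean at each later age and the largest change of the 9 genes tested at 12 months against 3 months. It had 1.48, 0.488, 0.874, 2.04 and 0.352 CPM at 3 months and 2.28, 1.93, 1.84, 2.005 and 3.12 CPM at 6 months. It had 3.47, 4.36, 5.35, 3.26 and 2.37 CPM at 9 months and 11.04, 6.42, 3.63 and 9.97 CPM at 12 months. At 9 and at 12 months every library lay above every 3-month library. Cd163l1 averaged 7.76 ± 3.39 CPM at 12 months (SD, n = 4), against 1.05 ± 0.706 CPM at 3 months (SD, n = 5), a 7.28-fold difference with a log2 change of 2.86 ± 0.40 (SE, edgeR, adjusted p = 0.000358). At 9 months against 3 months the change was 1.82 ± 0.39 (edgeR, adjusted p = 0.00257), and the trend over 9 months was 2.79 ± 0.36 (edgeR, adjusted p = 9.81e-05). At 6 months against 3 months the change of 1.08 ± 0.40 did not pass (edgeR, adjusted p = 0.430), nor did that of 1.04 ± 0.37 at 12 months against 9 months (edgeR, adjusted p = 0.236). Its counts were low, 4.84 to 28 estimated counts in a 3-month library and 48.9 to 141 in a 12-month library. Trdc and Tcrg-C1, constant-region genes of the gamma-delta T cell receptor, were listed at 0 in all 19 libraries, so these tables give no reading of that cell type from its receptor genes. Cd3e, a chain of the T cell receptor complex, averaged 4.97 ± 5.39 CPM over the 4 libraries of 12 months, against 0.728 ± 0.272 CPM over the 5 of 3 months (SD), and its part in the Cd163l1 result was not tested.

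The class A scavenger receptor gene Msr1 had 7.02, 7.65, 3.16, 5.44 and 7.57 CPM at 3 months and 6.12, 6.38, 4.65, 14.5 and 12.4 CPM at 6 months. It had 9.94, 8.02, 5.76, 10.8 and 4.03 CPM at 9 months and 6.79, 14.5, 5.84 and 3.48 CPM at 12 months. High values came from 2 libraries at 6 months and 1 at 12 months, and all ages overlapped. The log2 change was 0.31 ± 0.41 at 12 months against 3 months (SE, edgeR, adjusted p = 0.625) and became -0.20 without 12-month replicate 2, and at 9 months against 3 months it was 0.32 ± 0.39 (edgeR, adjusted p = 0.587). Marco, the bacteria-binding relative of Msr1, had few reads. Its estimated counts, summed over an age, were 26 for mice of 3 months, 10 for 6 months, 52.4 for 9 months and 24 for 12 months. Of the 52.4 counts at 9 months, 30 came from replicate 2, and 2 libraries at 6 months had a count of 0, which allows up to 3. In a fit without the low-count filter its log2 change was 1.02 ± 0.73 at 9 months against 3 months (edgeR, adjusted p = 0.367) and 2.28 ± 0.82 at 9 months against 6 months (edgeR, adjusted p = 0.0733), and neither passed.

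Cd14, the co-receptor for lipopolysaccharide, had 12.5, 11.9, 14.1, 18.1 and 16.3 CPM at 3 months and 13.9, 13.04, 13.2, 12.2 and 10.3 CPM at 6 months. It had 15.3, 23.4, 14.98, 10.98 and 19.9 CPM at 9 months and 21.3, 12.9, 22.0 and 19.5 CPM at 12 months. At 12 months 3 of the 4 libraries lay above every 3-month library, and replicate 2, the library with the highest Cr2, lay among them. Cd14 averaged 18.9 ± 4.17 CPM at 12 months (SD, n = 4), against 14.6 ± 2.61 CPM at 3 months (SD, n = 5), a log2 change of 0.37 ± 0.19 (SE, edgeR, adjusted p = 0.170). Without the 3 libraries high in Cr2 the change was 0.52 ± 0.17 and passed (edgeR, adjusted p = 0.0316). The trend of 0.45 ± 0.19 over 9 months (edgeR, adjusted p = 0.0792) passed without 3-month replicate 4 (0.0339), 9-month replicate 4 (0.0472) or 12-month replicate 2 (0.0344).

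**Figure D2:**
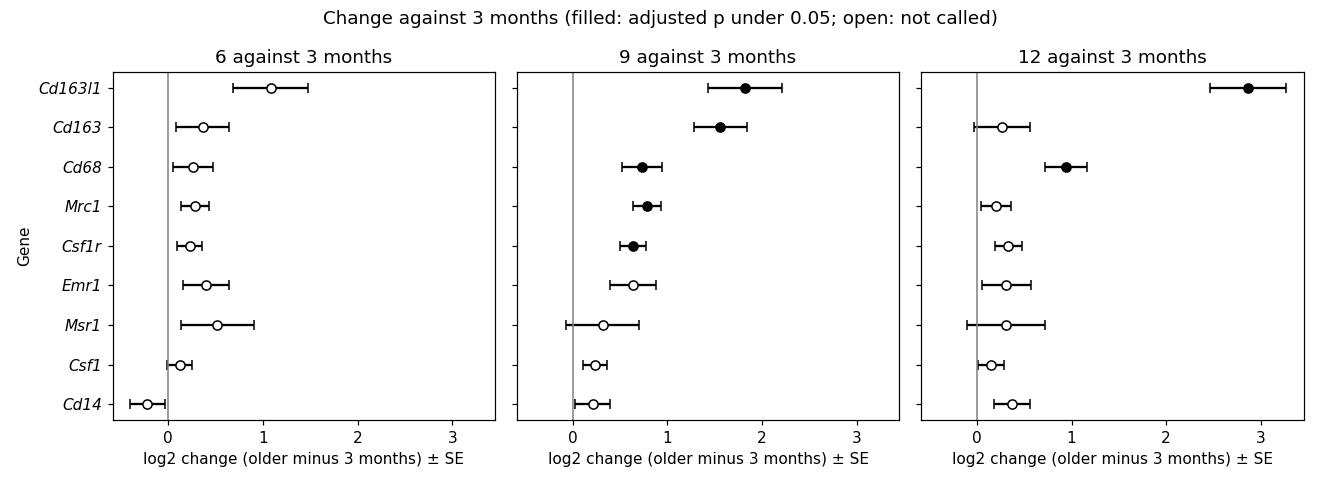
Log2 change (horizontal axes) of the 9 genes tested, at 6, 9 and 12 months against 3 months, with the SE as bars. Filled points passed at an adjusted p under 0.05 (edgeR) and open points did not, and 5 are filled at 9 months, 2 at 12 months and none at 6 months in this edgeR fit.

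The median log2 change of the 9 genes was 0.28 at 6 months, 0.64 at 9 months and 0.31 at 12 months against 3 months, while over all genes tested the median change was within 0.03 of 0. The 3 comparisons share the 3-month libraries. Groups did not overlap for 3 of the 9 genes at 9 months (Cd163, Cd163l1 and Mrc1) and for 1 at 12 months (Cd163l1), where 5.54% and 6.74% of all genes were higher without overlap. Within an age many of the 10 genes had their extreme levels in the same library. Of the 10 genes, 7 had their highest 9-month level in replicate 2 and 8 had their lowest in replicate 5, and 7 had their lowest 12-month level in replicate 4. The share of all genes with the same extremes is not given here, so these counts are not read as particular to the 10 genes. The 9-month replicate 2 was high in both Cr2 and Alb, and replicate 5 had the lowest levels of both at that age.

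**Figure D3:**
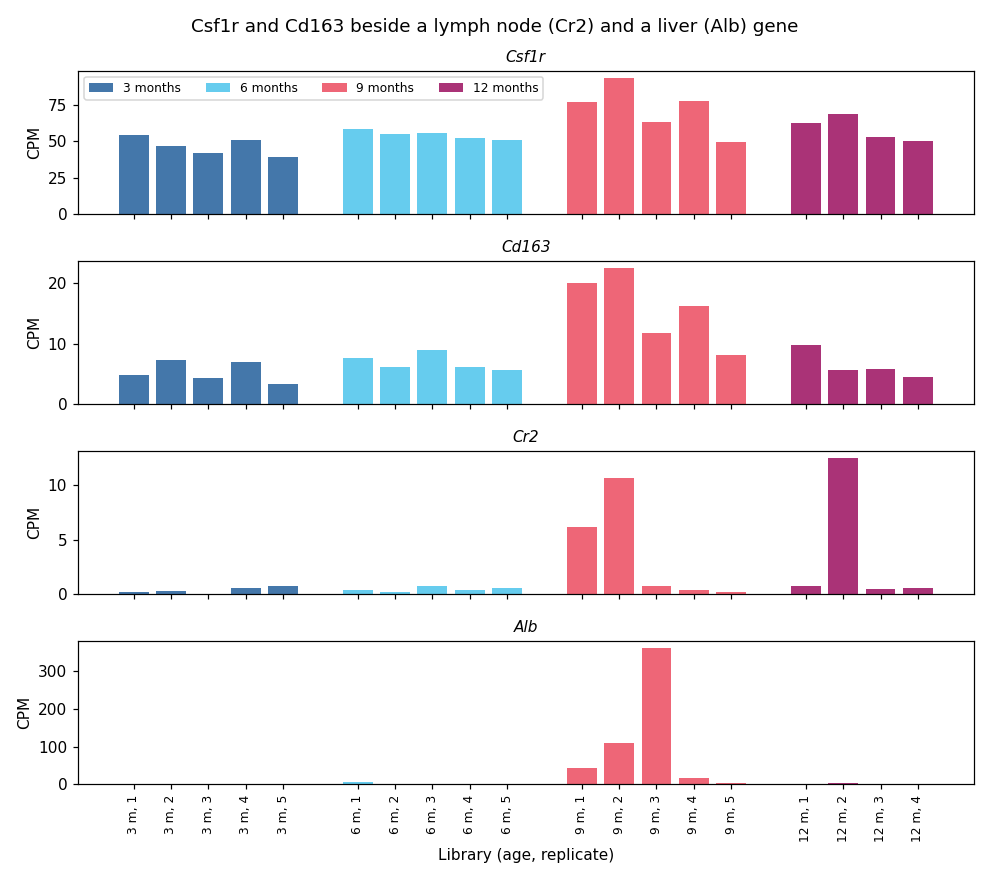
CPM (vertical axes, from 0) of Csf1r, Cd163, the lymph node gene Cr2 and the liver gene Alb in each library, grouped and coloured by age from 3 to 12 months. Cr2 is high in 9-month replicates 1 and 2 and 12-month replicate 2, and Alb in 9-month replicates 1 to 3. Cd163 was 16.3 CPM in 9-month replicate 4, where Cr2 was 0.416 and Alb 16.2 CPM. That Alb level is above the 5.07 CPM reached at most at other ages.

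Leaving out the libraries high in Cr2, or those high in Alb, lowered the calls at 9 months among the 9 genes and all genes. Neither fit is free of liver transcripts at 9 months, and no fit left out both sets. The first keeps replicate 3, with 362 CPM of Alb. The second keeps replicate 4, with 16.2 CPM of Alb, where other ages had at most 5.07 CPM. Without the 3 libraries with Cr2 above 5 CPM, 4 of the 9 genes and 8.19% of all genes were called higher at 9 months than at 3 months, Cd68 being lost (edgeR, log2 change 0.69, adjusted p = 0.0634). The log2 change of Cd163 was then 1.19 ± 0.28 (edgeR, adjusted p = 0.00858), that of Mrc1 0.62 ± 0.14 (edgeR, adjusted p = 0.00757) and that of Csf1r 0.47 ± 0.13 (edgeR, adjusted p = 0.0175). Without the 3 libraries with Alb above 40 CPM, which left 2 libraries at 9 months, only Cd163 of the 9 genes was called, beside 2.18% of all genes, at 1.19 ± 0.33 (edgeR, adjusted p = 0.0360). Mrc1 was then at 0.59 ± 0.18 (edgeR, adjusted p = 0.0560), Csf1r at 0.45 ± 0.16 (edgeR, adjusted p = 0.0920), Cd163l1 at 1.41 ± 0.50 (edgeR, adjusted p = 0.101) and Cd68 at 0.58 ± 0.28 (edgeR, adjusted p = 0.254). Every one of the 9 genes kept a positive change at 9 months in both fits. The 12-month calls held in both, with Cd163l1 at 2.95 ± 0.44 and Cd68 at 0.81 ± 0.24 without the libraries high in Cr2 (edgeR, adjusted p = 0.000439 and 0.0238). Of all genes, 12.1% were called higher at 12 months without the libraries high in Cr2 and 11.9% without those high in Alb.

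To see which genes moved beyond the receptor Csf1r, each was set against Csf1r of the same library as a difference of log2(CPM + 0.5). Cd163 lay at -2.22 ± 0.25 relative to Csf1r at 9 months, against -3.06 ± 0.35 at 3 months (SD, n = 5 each), a difference of 0.84 with no overlap between the ages. The two-sided exact permutation test gave p = 0.00794, the smallest this design allows, and 0.0952 after Benjamini-Hochberg adjustment over the 18 tests made, so it did not pass. Cd163l1 lay at -2.94 ± 0.68 at 12 months (SD, n = 4), against -5.04 ± 0.53 at 3 months (SD, n = 5), a difference of 2.10 with no overlap (exact permutation p = 0.0159, the smallest this design allows, adjusted p = 0.0952). Cd68 relative to Csf1r lay at -0.56 ± 0.21 at 12 months (SD, n = 4), against -1.18 ± 0.31 at 3 months (SD, n = 5), with an exact permutation p of 0.0476 and an adjusted p of 0.143. Csf1 relative to its receptor was lower by 0.39 at 9 months than at 3 months (exact permutation p = 0.0317, adjusted p = 0.143). Emr1 followed Csf1r most closely at 9 months, with a difference of -0.02 against 3 months (exact permutation p = 0.802, adjusted p = 0.849). None of the 18 tests passed after adjustment, and 6 had an unadjusted p under 0.05.

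**Figure D4:**
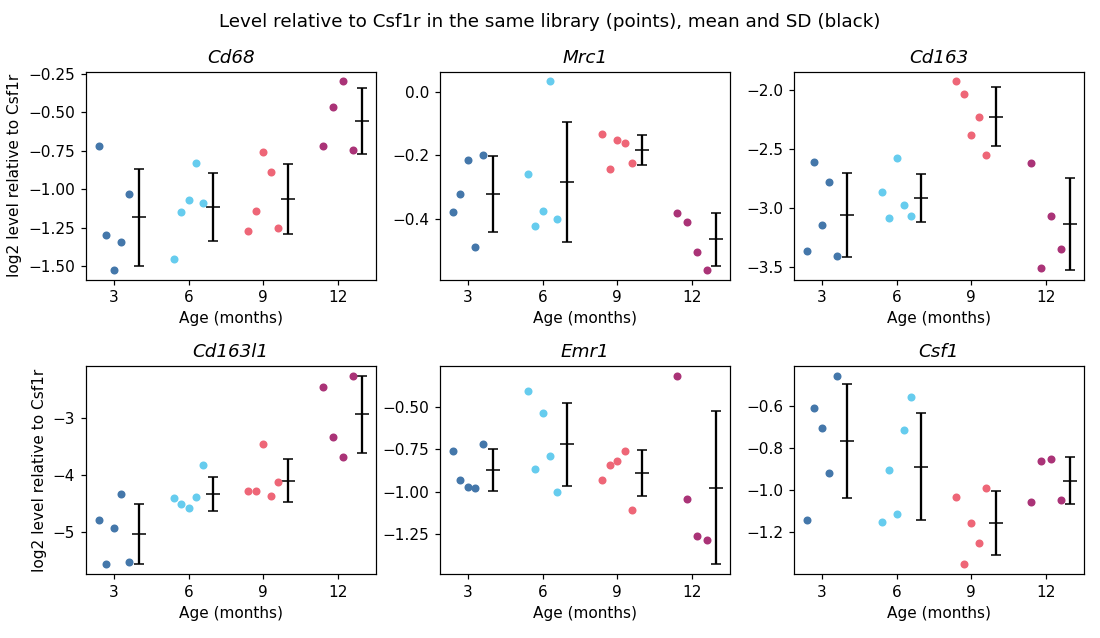
Level of 6 of the genes relative to Csf1r in the same library, as the difference of log2(CPM + 0.5) (vertical axes), at 3, 6, 9 and 12 months, with points for libraries and the mean and SD in black. Cd163 averages -2.22 at 9 months, above its 3-month mean of -3.06, and Cd163l1 averages -2.94 at 12 months.

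Other genes of the same pathways were read from wider lists. Of all genes tested, 11.3% were called higher at 9 months and 10.9% at 12 months than at 3 months. These shares were 8.19% and 12.1% without the libraries high in Cr2, and 2.18% and 11.9% without those high in Alb. Of 27 other macrophage identity genes tested, 16 were called higher at 9 months and 16 at 12 months than at 3 months, 20 along the trend, and none lower, with a median log2 change of 0.60 and 0.72 at the 2 ages. Laptm5, a lysosomal membrane protein of blood cells, averaged 105 ± 39.0 CPM at 12 months (SD, n = 4), against 48.1 ± 8.18 CPM at 3 months (SD, n = 5; log2 change 1.13 ± 0.24, edgeR, adjusted p = 0.00451). C1qc and C1qa, chains of complement C1q made by tissue macrophages, changed by 0.77 ± 0.18 and 0.70 ± 0.17 (edgeR, adjusted p = 0.00661 and 0.00850). Tyrobp, a signalling adaptor of myeloid receptors, changed by 0.74 ± 0.18 (edgeR, adjusted p = 0.00850). Without the libraries high in Cr2, 7 of 28 were called higher at 9 months and 10 of 28 at 12 months, with 1 called lower at 12 months. Without those high in Alb, 1 of 28 was called higher at 9 months and 17 of 28 at 12 months.

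Of 23 other scavenger receptors, 12 were called higher at 9 months, and 8 higher and 2 lower at 12 months, against 3 months. Over all genes, 1782 of 15518 were called lower at 12 months. Cd5l, a secreted relative of CD163 made by macrophages, averaged 18.9 ± 7.66 CPM at 12 months (SD, n = 4), against 3.06 ± 1.47 CPM at 3 months (SD, n = 5; log2 change 2.62 ± 0.51, edgeR, adjusted p = 0.00297). Ssc5d, another gene of the cysteine-rich scavenger family, averaged 22.8 ± 7.79 CPM at 9 months, against 6.94 ± 1.51 CPM at 3 months (SD, n = 5 each; log2 change 1.72 ± 0.22, edgeR, adjusted p = 7.52e-05), and at 12 months it was still higher by 1.14 ± 0.23 (edgeR, adjusted p = 0.00318). Cxcl16, a membrane chemokine that also binds oxidised lipoprotein, changed by 0.84 ± 0.16 at 12 months (edgeR, adjusted p = 0.00253), and Cd209b, a lectin, by 1.59 ± 0.45 from a low level (edgeR, adjusted p = 0.0177). Those called lower at 12 months were Scara5, the ferritin receptor, at -0.51 ± 0.15 (edgeR, adjusted p = 0.0225) and Lrp1, the receptor for hemopexin-bound heme and many other ligands, at -0.36 ± 0.11 (edgeR, adjusted p = 0.0218). Both were named after their values were seen. Without the libraries high in Cr2 the counts were 10 higher at 9 months, and 6 higher and 2 lower at 12 months; without those high in Alb they were 4, and 8 and 2.

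Around hemoglobin uptake, 6 of 7 genes of heme carriage and iron handling were called higher at 9 months and 4 at 12 months than at 3 months. The plasma carrier gene Hpx was among the 6. Hmox1, the heme oxygenase that opens the heme ring, was likewise highest on average at 9 months, with 98.0 ± 41.5 CPM at 9 months against 38.2 ± 7.67 CPM at 3 months (SD, n = 5 each; log2 change 1.36 ± 0.22, edgeR, adjusted p = 0.000494) and 0.81 ± 0.23 higher at 12 months than at 3 months (edgeR, adjusted p = 0.0207). Blvrb, a biliverdin reductase, changed by 0.35 ± 0.10 at 12 months (edgeR, adjusted p = 0.0222). The ferritin chains Ftl1 and Fth1, which store iron, changed by 0.43 ± 0.08 and 0.28 ± 0.06 (edgeR, adjusted p = 0.00239 and 0.00461). Hpx, the plasma heme carrier made in the liver, changed by 5.16 ± 0.93 at 9 months (edgeR, adjusted p = 0.000931) and by 0.00 ± 1.25 at 12 months against 3 months, beside the Alb levels given above. Without the libraries high in Cr2, 4 were called at 9 months and 4 at 12 months, and without those high in Alb 2 and 4.

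Around Cd14, 8 of 15 genes of the TLR4 receptor complex and its signalling were called higher at 9 months and 4 at 12 months than at 3 months, and none lower. Tlr4 itself averaged 43.9 ± 12.1 CPM at 9 months, against 27.9 ± 4.46 CPM at 3 months (SD, n = 5 each; log2 change 0.66 ± 0.19, edgeR, adjusted p = 0.0193). Ticam1 and Irak4, which carry the signal inward, changed by 0.40 ± 0.11 and 0.55 ± 0.17 at 12 months (edgeR, adjusted p = 0.0137 and 0.0237), and Tlr2 by 0.61 ± 0.19 (edgeR, adjusted p = 0.0284). Without the libraries high in Cr2, 1 of the 15 was called at 9 months and 3 at 12 months, and without those high in Alb none and 6. The genes tested in a list around CSF1R were its ligand gene Il34, the related receptors Kit and Flt3, and Flt3l. Csf3, Csf3r, Csf2ra and Csf2rb in that list belong to other receptor families. Of these 8 genes, 2 were called higher at 9 months and 1 at 12 months. Flt3, named after its value was seen, changed by 1.20 ± 0.36 at 9 months against 3 months (edgeR, adjusted p = 0.0227). Csf2rb, the shared chain of the GM-CSF, IL3 and IL5 receptors, changed by 0.76 ± 0.26 at 9 months (edgeR, adjusted p = 0.0426) and Csf2ra, the GM-CSF binding chain, by 0.41 ± 0.12 at 12 months (edgeR, adjusted p = 0.0178). Without the libraries high in Cr2, none of the 8 was called at 9 months and 1 at 12 months, and without those high in Alb none and 2. Flt3l, the ligand of the related receptor FLT3, was called along the trend at 0.72 ± 0.24 (edgeR, adjusted p = 0.0296).

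**Figure D5:**
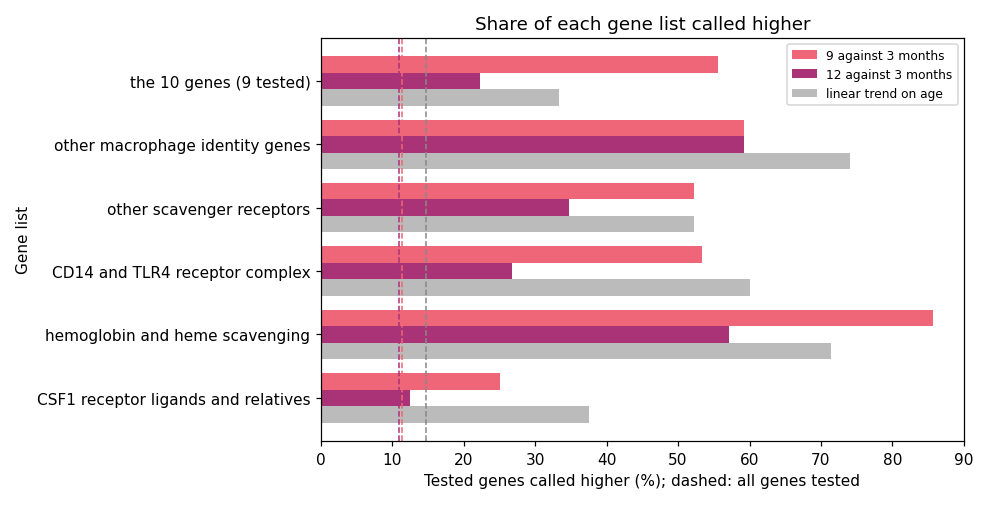
Share of the genes tested in each list that was called higher (horizontal axis, percent) at 9 months and at 12 months against 3 months and along the trend with age. Dashed lines give the share of all 15518 genes called higher, 11.3%, 10.9% and 14.7%. At 9 months the bar of the heme genes, with 6 of 7 called, is the longest of the lists plotted. Without the libraries high in Alb, 2 of the 7 were called. The list of CSF1 receptor ligands and relatives also holds genes of other receptor families.

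Markers of other white cells were also called, where 11.3% of all genes were called higher at 9 months and 10.9% at 12 months. Of 7 monocyte markers tested, 4 were called higher at 9 months and 3 at 12 months than at 3 months, with sums of 118 to 180 CPM at 9 months, 89.9 to 209 at 12 months and 83.8 to 173 at 3 months. Nr4a1 was the largest part of the 3-month sum on average, at 49.8 ± 35.5 CPM, and averaged 19.8 ± 6.83 CPM at 12 months (SD). The sum is therefore no measure of monocytes alone. Ly6c2 and Plac8 changed by 1.99 ± 0.52 and 0.83 ± 0.25 at 12 months (edgeR, adjusted p = 0.0115 and 0.0225), and Ccr2, the receptor that brings monocytes into tissue, by 0.88 ± 0.21 at 9 months (edgeR, adjusted p = 0.00665). At 12 months Ly6c2 had 5.02, 21.5, 2.96 and 2.94 CPM, the 21.5 CPM being in replicate 2, which was high in Cr2. Its 3-month libraries had 1.49 to 2.48 CPM. Nr4a1, a transcription factor of patrolling monocytes and of other cells, was called lower along the trend at -1.41 ± 0.45 (edgeR, adjusted p = 0.0245). Along the trend 2302 of all 15518 genes were called lower. Nr4a1 was named after its value was seen. Of 9 dendritic cell markers, 4 were called higher at 9 months and 2 at 12 months, with sums of 47.8 to 84.2 CPM at 9 months, 42.6 to 93.0 at 12 months and 37.9 to 47.0 at 3 months. Itgax, the integrin CD11c, changed by 1.81 ± 0.34 at 12 months (edgeR, adjusted p = 0.00246), and Xcr1 by 0.90 ± 0.30 (edgeR, adjusted p = 0.0382). Other markers of the list did not follow. Zbtb46 was at -0.24 ± 0.11 and Clec9a at 0.11 ± 0.22 at 12 months (edgeR, adjusted p = 0.129 and 0.756), both named after their values were seen. Of 4 neutrophil markers tested, 2 were called higher at 9 months and 1 at 12 months, and the list's sum of 334 to 896 CPM at 9 months, 489 to 910 at 12 months and 229 to 520 at 3 months was mostly Ltf, which epithelium also makes. The granule genes Ngp, Elane and Mpo were at 0 in 18, 16 and 15 of the 19 libraries. Lymph node markers were called higher for 8 of 10 at 9 months and 7 of 10 at 12 months, and liver markers for 5 of 8 and 0 of 8. Without the libraries high in Cr2, the counts called higher at 9 and 12 months were 2 and 1 of 7 for monocytes, 1 and 1 of 9 for dendritic cells, 2 and 1 of 4 for neutrophils, 3 and 5 of 9 for lymph node and 4 and 0 of 7 for liver. Without those high in Alb they were 0 and 4 of 7 for monocytes, 0 and 3 of 9 for dendritic cells, 1 and 1 of 4 for neutrophils, 0 and 9 of 10 for lymph node and 3 and 1 of 7 for liver. Over all genes the shares called higher at 9 and 12 months were 8.19% and 12.1% without the libraries high in Cr2. They were 2.18% and 11.9% without those high in Alb. Calls in the other direction were 1 dendritic cell marker at 12 months without the libraries high in Cr2, and 1 liver marker at each age without those high in Alb. Over all genes, 2005 of 15542 were called lower at 12 months in the first of these fits. In the second, 774 of 15759 were called lower at 9 months and 2049 at 12 months. The part of these cells in the results for the 10 genes was not tested.

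The genes whose profiles over the 19 libraries lay closest to each gene were found by the root mean square difference of log2 CPM, each profile centred on its mean, among 11741 genes. Closest to Cd68 were Myo1f at 0.16, Pla2g7 at 0.21 and Lyz2 at 0.21, where the root mean square of the Cd68 profile itself was 0.49. Closest to Cd163, with 0.72 of its own, were F13a1 at 0.27, Mmp9 at 0.36 and Col14a1 at 0.39. Closest to Mrc1, with 0.36 of its own, were Serping1 at 0.16, the scavenger lectin Colec12 at 0.17 and C1s at 0.18. Emr1, with 0.43 of its own, lay closest to Ptplad2 and Clec12a, both at 0.22, and Irgm2 at 0.24. Csf1r, with 0.31 of its own, lay closest to Crebl2 at 0.12 and Fnbp1 and Snx10, both at 0.14. Csf1, with 0.21 of its own, lay closest to Traf3 at 0.12 and Iqgap1 and Rab8b, both at 0.13. Cd14, with 0.34 of its own, lay closest to Spint2 at 0.20 and Klf5 and Grb7, both at 0.21. Msr1, with 0.60 of its own, lay closest to Sfrp2, Ccl9 and Pik3r1, each at 0.43. Cd163l1, with 1.13 of its own, lay closest to Oas1a at 0.70, Tpsb2 at 0.72 and Pik3r5 at 0.74. These distances rest on libraries that share their tissue makeup and depth, and are a description.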

How the data were processed

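RNA of whole mouse ovaries was sequenced in 19 libraries, made from RNA isolated from frozen tissue with a kit that keeps strand, per the labels' protocols. Reads were placed on mm10, the build named in the submitters' processing notes. The sources used here give no aligner, counting method or use of strand in counting, so counts of overlapping or closely related genes are uncertain. The authors deposited estimated counts per gene, which need not be whole, for 36172 genes, per the file headers. Of the nonzero values 20.1% were whole within 1e-06. The authors also deposited log2 values set relative to the 3-month median, used here only as an alternative, and each table has 1 further column that matches no sample and was not used. A deposited subset of the log2 table was not used.

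Counts were rounded and tested with edgeR 4.0.16 (R 4.3.3): TMM scaling, filter with minimum count 10 and total 15 (15518 genes left), a mean per age over all libraries, robust quasi-likelihood test, Benjamini-Hochberg adjustment over all genes tested, threshold 0.05. The trend was fitted on months and is given over 9 months. The SE is the log2 change divided by the root of F. CPM use TMM library sizes. Members set against Csf1r were tested by exact two-sided permutation of log2(CPM + 0.5), with scipy 1.17.1. Lengths are those of the longest matched transcript. The fit was tested on simulated counts.

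Libraries of one age differed by a chi-square per degree of freedom of 5.11 to 38.86, above counting noise, so each was counted once. The total per library limits genes such as Marco, and counts cover counting error only.

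The members and gene lists were chosen with earlier results of these data known. All 10 genes are named. From each list up to 4 genes with the smallest trend p among those called at 12 months or along the trend are named, and the likeness rule names the 3 nearest genes with a mean of at least 5 CPM. Of 133 list entries 2 had no gene in the table. Alternatives were DESeq2 1.42.0 and its kind of size factor, and limma 3.58.1. The limma fits were voom with sample weights, and a fit of the deposited log2 values without a trend of variance on level. Further alternatives were other filters, only the ages compared, an adjusted p under 0.01, each library left out, and libraries with Cr2 above 5 CPM left out. Leaving out those with Alb above 40 CPM was added after seeing the data.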

Additional observations from a re-analysis of the deposited data

How the results depend on the processing

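No call of a member reversed. Changes of sign occurred in values that did not pass. Leaving out the libraries high in Cr2, the log2 change of Msr1 was -0.20 at 12 months against 3 months and -0.22 along the trend, that of Csf1 was -0.032 at 9 months against 6 months, and Cd163 relative to Csf1r was 0.049 higher at 12 months than at 3 months. Leaving out those high in Alb, which was chosen after seeing the data, Csf1 was at -0.035 at 9 months against 6 months and 0.072 at 12 months against 9 months, and Msr1 at 0.043 at 12 months against 9 months. With the mean of Csf1r, Cd68 and Emr1 as denominator, Cd14 was at -0.15 at 12 months against 3 months.

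Leaving out each library in turn, the log2 change at 12 months against 3 months ran from -0.013 to 0.40 for Cd163, -0.20 to 0.54 for Msr1 and -0.018 to 0.46 for Emr1. At 12 months against 9 months it ran from -0.22 to 0.014 for Csf1 and -0.53 to 0.23 for Msr1, which ran from -0.35 to 0.055 at 9 months against 6 months and from -0.11 to 0.42 along the trend. Relative to Csf1r at 12 months against 3 months the range was -0.25 to 0.049 for Cd163, -0.42 to 0.068 for Msr1 and -0.10 to 0.28 for Cd14, and for Emr1 at 9 months against 3 months it was -0.053 to 0.034.

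The number of members called at 9 months against 3 months was 1 without the libraries high in Alb, against 5, and 5 to 6 with 1 library left out. At 9 months against 6 months it was 0 without the libraries high in Cr2, 0 without those high in Alb, 1 at an adjusted p under 0.01 and 1 to 4 with 1 library left out, against 3. At 12 months against 9 months it was 2 by DESeq2 and 0 to 2 with 1 library left out, against 0. It was 2 to 3 at 12 months against 3 months and 2 to 4 along the trend with 1 library left out. The cause was not tested. Of the single-gene values, 1741 kept direction and side of the threshold, 37 lost a call, 19 gained one and 30 changed sign. Cd68 at 9 months was lost with only the ages compared (edgeR, adjusted p = 0.0511), and the Csf1r calls at 9 against 6 months and along the trend were lost with limma on the deposited log2 values (adjusted p = 0.0744 and 0.0570).

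Over all genes the count called at 6 months against 3 months was 3, against 47 by DESeq2 and 174 by limma-voom, 34 with only the ages compared, 8 without the libraries high in Cr2 and 0 at an adjusted p under 0.01. Without those high in Alb it was 1118 at 9 months against 3 months, where all libraries gave 3872, and 456 at 9 months against 6 months, where they gave 2676. An adjusted p under 0.01 gave 1872, 1354, 994 and 2349 genes at 9 and 12 months against 3 months, at 9 months against 6 months and along the trend, where 0.05 gave 3872, 3475, 2676 and 4576. Marco passed the low-count filter only in the fits without 12-month replicate 2, 3 or 4, and was called in none of them. No paired analysis was possible because the labels give no replicate number shared between ages.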

Other observations

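Il23r, a receptor of IL17-producing lymphocytes, ran from 0.453 to 1.80 CPM at 12 months and from 0.144 to 0.437 CPM at 3 months. Its 12-month libraries had 1.80, 0.842, 0.597 and 0.453 CPM, where Cd163l1 had 11.04, 6.42, 3.63 and 9.97 CPM. Replicate 1 was the highest for both, while replicate 4 was the lowest for Il23r and next to the highest for Cd163l1. The neighbouring gene 5830411N06Rik had at most 0.702 CPM in any library. Timd4, a receptor for dying cells on resident macrophages, had 0.0756 to 1.68 CPM at 12 months and 0.450 to 1.09 CPM at 3 months, and Vsig4, a complement receptor of resident macrophages, 0.148 to 0.782 CPM at 12 months and 0 to 0.750 CPM at 3 months. Timd4 did not pass at 12 months against 3 months, with a log2 change of -0.33 ± 0.59 (edgeR, adjusted p = 0.722). These genes were named after their values were seen.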
